A study of Mus musculus with 6 samples.

Results

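The 10 genes described here are the MiT/TFE transcription factors Tfeb, Tfe3, Mitf and Tfec, the Rag GTPases Rragc and Rragd, folliculin (Flcn) with its partners Fnip1 and Fnip2, and Gpnmb. They are 10 of the 56305 genes in the table and were listed by name, with no threshold on their values, although earlier results of these data were known when the list was made. Polyadenylated RNA was sequenced from whole livers of 3 WT and 3 Vps15LKO male mice, 1 library per mouse, at 5 weeks of age and ZT6 (6 h after lights on), with food freely available. Vps15LKO mice carried AlbCre and floxed Vps15 alleles (AlbCre+;Vps15 f/f), so that Cre under the albumin promoter recombined Vps15 in hepatocytes, and WT mice were the controls. Vps15, encoded by Pik3r4, is the regulatory subunit of the class 3 phosphoinositide 3-kinase, which acts in autophagy and endosomal sorting. The floxed allele leaves a shortened product after recombination, and cells without Cre keep an intact gene. Recombination was not measured by cell type. All values are thus of whole liver, in which fewer cells of a type and less RNA per cell cannot be told apart.

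MiT/TFE factors bind E-box elements in the promoters of lysosomal and autophagy genes, the CLEAR network. When amino acids are plentiful, RagA or RagB paired with RagC or RagD recruits mTORC1 to the lysosome, RagC and RagD present TFEB and TFE3 to it, and phosphorylation then keeps these factors in the cytoplasm. Folliculin, bound to FNIP1 or FNIP2, is the GTPase-activating protein for RagC and RagD, and Rragd, Flcn, Fnip2 and Gpnmb are themselves known targets of MiT/TFE factors. The RNA level of a factor does not report its phosphorylation or its place in the cell, which were not measured here.

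The libraries held 16137093 to 18110223 reads on genes. The authors' size factors were 0.742 to 0.801 in WT and 1.23 to 1.41 in Vps15LKO livers, so a read counts for more in a WT library. Pik3r4 read 508, 573 and 460 in the WT and 341, 362 and 355 in the Vps15LKO livers (normalized counts), and was called lower (log2 fold change -0.54, limma, adjusted p = 0.00207). Calls of higher or lower required an adjusted p below 0.05 (limma on log2(normalized count + 1), Benjamini-Hochberg over 15430 tested genes) together with a fold of at least 1.2. The genotype moved much of the transcriptome. Of the tested genes 33.5% were called higher and 33.0% lower, and 73.2% had no overlap between the genotypes. Scaling to total reads in place of the size factors raised the median of the log2 fold changes over the tested genes by 0.72 and lowered the share of falls among called genes from 49.7% to 14.3%. Values under that scaling are therefore also given relative to its own median.

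All 10 genes passed the filter on low values, Gpnmb through the Vps15LKO livers alone, so that it had to differ to be tested. Of these, 5 were called higher in Vps15LKO livers (Tfe3, Tfec, Rragc, Rragd, Gpnmb) and 1 lower (Fnip1), or 60.0% called in either direction against 66.5% of all tested genes. In 7 of the 10 the genotypes did not overlap, a share of 70.0% that is close to the background. The number of changed members therefore does not set them apart, whereas the size of 2 changes was far from the rest. The rise of Gpnmb was the 7th highest of the 15430 genes and that of Rragd the 109th, while the other 8 members lay between -0.65 and 0.89 on the log2 scale. Total-read scaling made the values of Flcn, Fnip1 and Fnip2 positive.

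**Figure D1:**
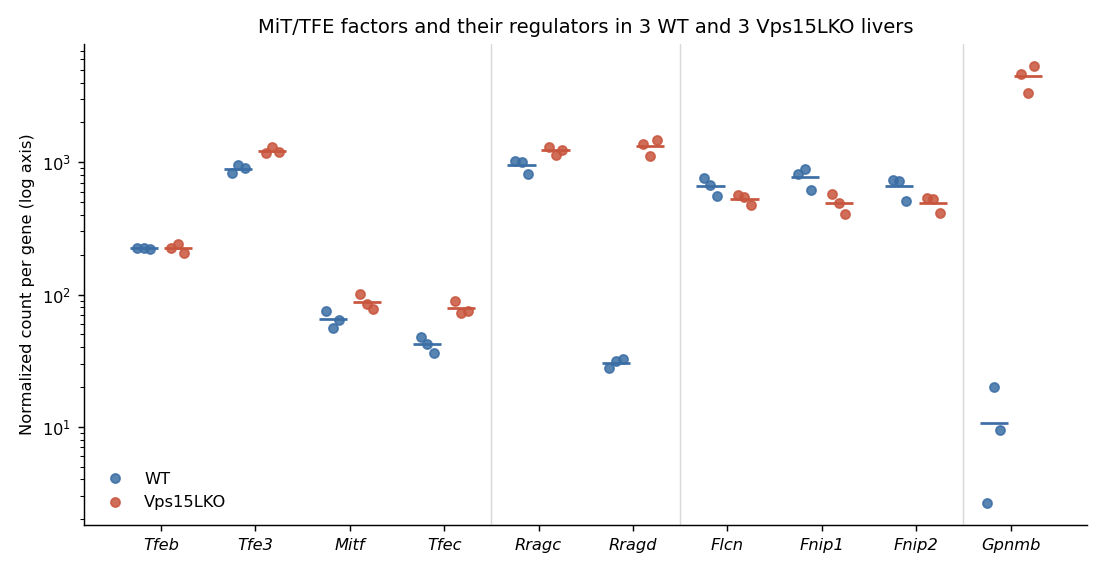
Normalized count (log axis) of each of the 10 genes in 3 WT (blue) and 3 Vps15LKO (red) livers, 1 point per liver in the order of replicates 1 to 3, with a bar at the mean. Rragd and Gpnmb lie far higher in Vps15LKO livers, while the Tfeb points of both genotypes lie at the same height.

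Tfeb, the factor most studied as a regulator of lysosome formation (chr17:47737030-47792419, plus strand, GRCm38), had nearly the same mean level in both genotypes. It measured 225, 225 and 220 normalized counts in the WT and 226, 241 and 207 in the Vps15LKO livers. The genotypes overlapped, and the means were 223 ± 3.13 and 224 ± 17.1 (SD, n = 3 each). The log2 fold change was 0.00 (SE 0.11, 95% interval -0.24 to 0.25, limma, adjusted p = 0.976). Leaving out 1 liver at a time gave -0.047 to 0.063. Under total-read scaling Tfeb was called higher at 0.73, which was 0.02 above the median of all tested genes under that scaling.

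Tfe3, the closest relative of Tfeb and in many tissues a partner with overlapping targets (chrX:7762560-7775202, plus strand), rose. It measured 833, 953 and 898 normalized counts in the WT and 1178, 1310 and 1186 in the Vps15LKO livers, with no overlap. Its log2 fold change was 0.45 (SE 0.09, limma, adjusted p = 0.00238), or 1.37-fold between the means. It was called under each of the 4 other scalings (1.18 with total reads, or 0.48 relative to the median of all genes) and without any 1 liver (0.40 to 0.50), though not at a fold threshold of 1.5.

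Mitf is best known from melanocytes, osteoclasts and mast cells (chr6:97807052-98021349, plus strand). It measured 75.6, 56.2 and 64.7 normalized counts in the WT and 102, 85.1 and 77.8 in the Vps15LKO livers. Every Vps15LKO liver was above every WT liver, by little at the margin. The log2 fold change of 0.42 (SE 0.18, 95% interval 0.01 to 0.84) missed the threshold (limma, adjusted p = 0.0652). Its call depends on the processing, since TMM, upper-quartile and total-read scaling, limma without a trend, edgeR on the recovered reads and leaving out WT replicate 1 (0.53, limma, adjusted p = 0.0415) each brought it past the threshold, whereas quantile normalization gave -0.087. Total-read scaling gave 1.14, or 0.44 relative to the median of all genes.

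Tfec, a member of the family with a narrow expression that includes macrophages (chr6:16833373-16898441, minus strand), had the largest relative rise of the 4 factors under the deposited scaling. It measured 47.7, 42.5 and 36.4 normalized counts in the WT and 90.1, 72.1 and 75.0 in the Vps15LKO livers, with no overlap. On the log2 scale the change was 0.89 (SE 0.19, limma, adjusted p = 0.00263), or 1.87-fold between the means. These values rest on 27 to 36 reads per WT library and 89 to 118 per Vps15LKO library. Total-read scaling gave 1.605, or 0.90 relative to the median of all genes. With quantile normalization Tfec was 0.31 and not called (limma, adjusted p = 0.177).

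A comparison between factors is possible within a library, where the size factor cancels. Per kb of exon, Tfeb made up 26.4%, 24.9% and 25.4% of the summed level of the 4 factors in WT and 19.98%, 20.2% and 19.1% in Vps15LKO livers. Tfe3 was the main factor in both genotypes, at 62.6% ± 2.54 among the WT and 66.1% ± 2.004 among the Vps15LKO livers (SD, n = 3). Mitf held 6.88% ± 1.21 and 7.11% ± 0.955, and Tfec 4.90% ± 0.715 and 7.08% ± 0.973. The shares depend on the length used. With the longest transcript Tfeb held 36.3% (WT) and 28.9% (Vps15LKO) on average, and Tfe3 53.8% and 58.5%. The log2 ratio of Tfeb to Tfe3, taken like the other ratios on normalized counts not divided by length, differed by -0.45 (Vps15LKO minus WT) with no overlap (exact permutation test, two-sided, p = 0.1, the smallest that 3 against 3 can give; 0.167 after Benjamini-Hochberg adjustment over 5 ratios). The ratio of Tfec to Tfe3 differed by 0.44 with overlapping genotypes (exact permutation p = 0.2, adjusted 0.25), and that of Mitf to Tfe3 by -0.03 (exact permutation p = 0.9). The share of Tfeb was thus lower in each Vps15LKO liver than in each WT liver, although the exact test over 3 and 3 livers cannot give a p under 0.05.

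**Figure D2:**
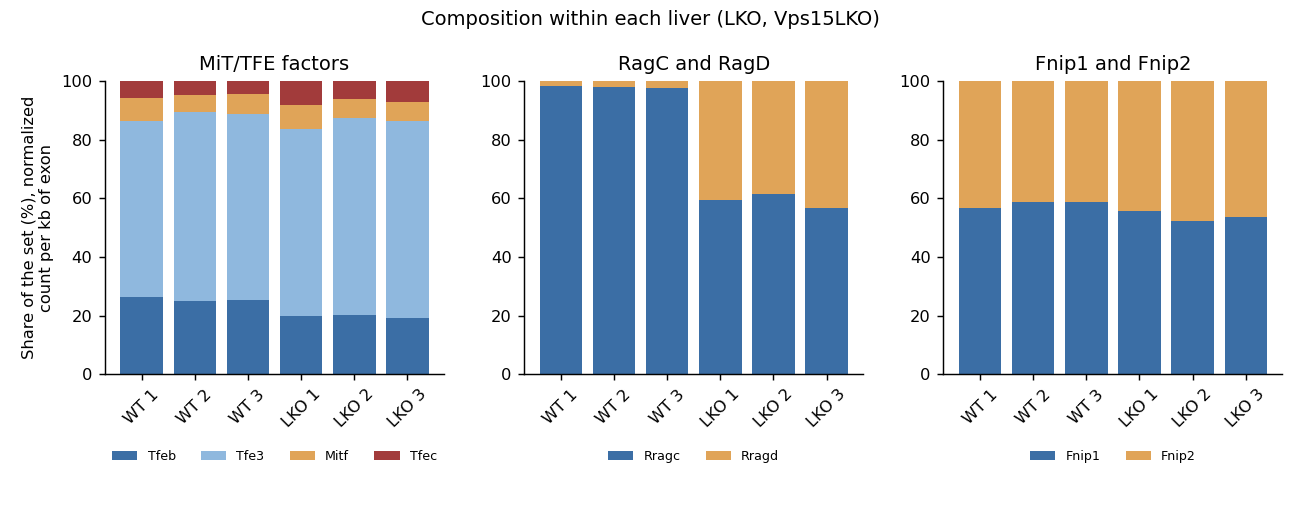
Stacked bars of the share (%) of each gene in its set, from normalized counts per kb of merged exons, for each of the 6 livers (LKO, Vps15LKO). Tfeb holds a smaller share in each Vps15LKO liver (left panel), the mean share of Rragd in the RagC and RagD sum is 2.07% in WT and 40.8% in Vps15LKO livers (middle panel), and that of Fnip2 is 41.9% and 46.2% (right panel).

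Rragd encodes RagD, one of the interchangeable partners of RagA and RagB (chr4:32983037-33022180, plus strand). It was near the bottom of the 10 genes in WT livers and near the level of Rragc in Vps15LKO livers. It measured 27.8, 31.2 and 32.4 normalized counts in the WT (21, 25 and 24 reads) and 1368, 1111 and 1474 in the Vps15LKO livers (1791, 1371 and 2084 reads). The log2 fold change was 5.38 (SE 0.14, 95% interval 5.07 to 5.70, limma, adjusted p = 8.74e-08), or 43.2-fold between the means. It was called under every one of the 21 alternatives, between 5.03 and 6.09. The upper end came from total-read scaling and was 5.39 relative to the median of all genes.

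Rragc, which encodes RagC (chr4:123917446-123936997, plus strand), rose much less. It measured 1022, 1004 and 813 normalized counts in the WT and 1302, 1142 and 1246 in the Vps15LKO livers, with no overlap. Its log2 fold change was 0.38 (SE 0.11, limma, adjusted p = 0.0152), a call that was lost without Vps15LKO replicate 1 (0.34, limma, adjusted p = 0.0658) and at a fold threshold of 1.5. Total-read scaling gave 1.11, or 0.40 relative to the median of all genes. A gene on the other strand, 4930535I16Rik, covers 264 of its exon bases (7.9%). The library kit marks strand, but whether the counting used strand is not given, so reads in that stretch cannot be assigned with certainty.

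The balance of the pair in each Vps15LKO liver was outside the range of the WT livers. Rragd made up 1.73%, 1.97% and 2.51% of the summed RagC and RagD transcript level per kb in WT and 40.4%, 38.6% and 43.3% in Vps15LKO livers. The log2 ratio of Rragd to Rragc in normalized counts, which are not divided by length, moved from -4.91 ± 0.27 (WT) to 0.091 ± 0.14 (Vps15LKO; SD, n = 3), a 32.0-fold shift (exact permutation p = 0.1, the smallest possible; adjusted 0.167).

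The sequences just before the RefSeq start sites of these genes were examined for the E-box core CACGTG, the TFE box TCACGTGA, the CLEAR element, which is the TFE box with G before and C after it, and the M-box TCATGTG, on both strands. Each longer palindrome holds the shorter one. In windows of 300 bases (250 before and 50 after each start, GRCm38.p6) these were present in 7.15%, 0.974%, 0.326% and 3.77% of 32851 windows. The 10 genes have 15 windows, and the E-box core was in a window of Rragc and in one of Fnip1, while the other 3 motifs were in none. The sites are shown with 12 bases on each side, plus strand, with the core in capitals, because they are the only matches among the members.
Rragc, chr4:123917309-123917338: ggtgattccgggCACGTGatagtaccactt
Fnip1, chr11:54438092-54438121: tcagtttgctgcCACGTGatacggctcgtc
They lie 112 to 107 and 75 to 70 bases before the start. Rragc was called higher and Fnip1 lower, so that the only members with a core in this window moved in opposite directions.

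The members with the largest rises, Rragd and Gpnmb, had none of the 4 motifs in these windows. Their 250 bases before the start are shown, plus strand, because their values carry the main result. Capitals mark the wider E-box class CANNTG, which takes in all 4 motifs and which 72.3% of all windows hold.
Rragd, chr4:32982748-32982997: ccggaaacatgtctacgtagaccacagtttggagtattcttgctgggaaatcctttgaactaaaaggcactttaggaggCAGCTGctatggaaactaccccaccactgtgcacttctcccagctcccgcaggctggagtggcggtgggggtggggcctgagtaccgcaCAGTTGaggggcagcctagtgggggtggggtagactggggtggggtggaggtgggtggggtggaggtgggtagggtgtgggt
Gpnmb, chr6:49036268-49036517: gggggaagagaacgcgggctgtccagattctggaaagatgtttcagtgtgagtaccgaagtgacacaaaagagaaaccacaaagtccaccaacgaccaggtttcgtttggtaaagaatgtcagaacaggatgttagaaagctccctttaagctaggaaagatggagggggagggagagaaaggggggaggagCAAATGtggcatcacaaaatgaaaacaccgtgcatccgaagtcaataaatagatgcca
The capitals are CAGCTG and CAGTTG for Rragd, at 171 to 166 and 82 to 77 bases before the start, and CAAATG for Gpnmb at 58 to 53 bases. A match or its absence describes these letters in this window alone, and binding was not measured.

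Folliculin and its partners, which act on the Rag proteins from the other side of the cycle, had lower means in Vps15LKO livers under the deposited scaling, where 1 of the 3 passed the test. Fnip1 (chr11:54438199-54518235, plus strand) was the only member called lower. It measured 810, 888 and 619 normalized counts in the WT and 576, 494 and 403 in the Vps15LKO livers, with no overlap, and a log2 fold change of -0.65 (SE 0.17, limma, adjusted p = 0.00822). The call held without any 1 liver (-0.80 to -0.52). Total-read scaling gave 0.074 with no call, which was -0.63 relative to the median of all genes.

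Flcn (chr11:59791408-59810016, minus strand) measured 754, 670 and 561 normalized counts in the WT and 564, 545 and 477 in the Vps15LKO livers. Only WT replicate 3 reached into the range of the Vps15LKO livers. The log2 fold change of -0.32 (SE 0.13, 95% interval -0.61 to -0.03) missed the threshold (limma, adjusted p = 0.054). Without WT replicate 3 it was called, at -0.43, and without any other single liver it was not called (-0.36 to -0.22). Total-read scaling turned it to 0.41 with a call of higher, or -0.30 relative to the median of all genes.

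Fnip2 (chr3:79455974-79567796, minus strand) measured 729, 728 and 512 normalized counts in the WT and 535, 530 and 412 in the Vps15LKO livers. Again WT replicate 3 was the WT liver that overlapped. On the log2 scale the change was -0.41 (SE 0.17, 95% interval -0.78 to -0.03, limma, adjusted p = 0.0563). Without WT replicate 3 it was -0.57 with a call of lower, and without any other single liver it was not called (-0.47 to -0.28). Total-read scaling gave 0.32, or -0.38 relative to the median.

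Within a library the balance of the partners differed by little. Fnip2 made up 41.9% ± 1.25 of their summed level per kb among the WT and 46.2% ± 1.82 among the Vps15LKO livers (SD, n = 3). The log2 ratio of Fnip2 to Fnip1 was higher by 0.25, with no overlap (exact permutation p = 0.1, the smallest possible; adjusted 0.167).

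**Figure D3:**
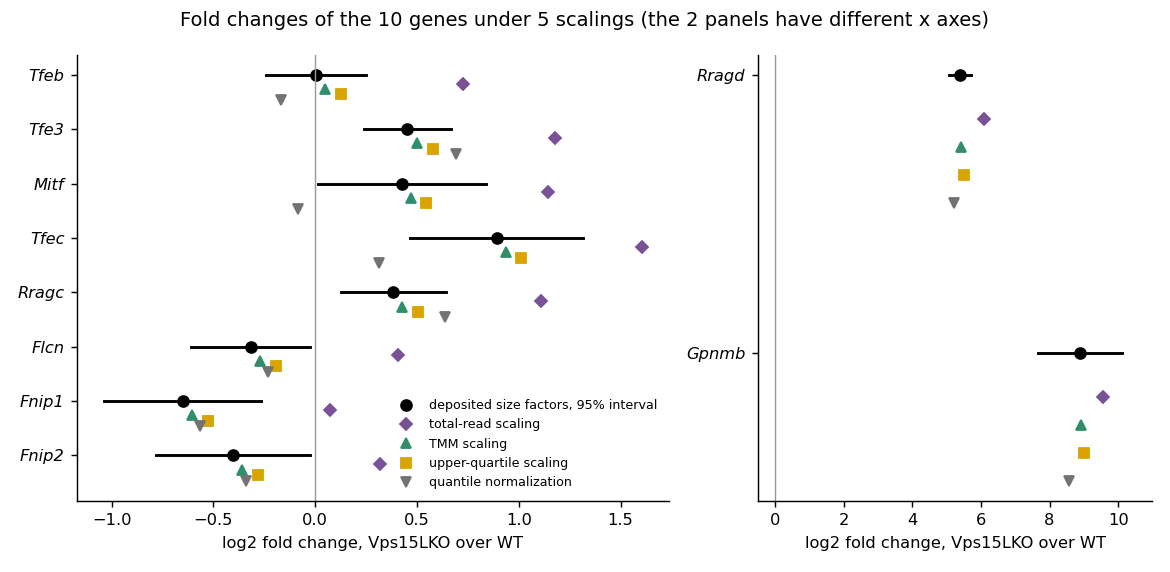
Log2 fold change of Vps15LKO over WT (x axis; the panels differ in range) for the 10 genes, with the 95% interval for the deposited size factors (black) and the value under 4 other scalings (coloured). Tfeb sits at 0.00, Rragd at 5.38 and Gpnmb at 8.88, and total-read scaling places Flcn, Fnip1 and Fnip2 above 0.

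Gpnmb encodes a transmembrane glycoprotein of lysosomes and melanosomes, known from melanocytes, osteoclasts and lipid-laden macrophages (chr6:49036546-49070929, plus strand). It had the largest difference of the 10 genes. In WT livers its normalized counts were 2.65, 19.99 and 9.44, which are 2, 16 and 7 reads. In Vps15LKO livers it had 4668, 3362 and 5362 normalized counts, from 6113, 4149 and 7581 reads. The WT livers were near the limit of detection and spread widely among themselves, while the lowest Vps15LKO liver was far above the highest WT liver. The log2 fold change was 8.88 (SE 0.53, 95% interval 7.66 to 10.10, limma, adjusted p = 3.49e-06), or 418-fold between the means of 10.7 ± 8.73 and 4464 ± 1015 (SD, n = 3). The size depends on the few WT reads, with 8.21 without WT replicate 1 and 9.47 without WT replicate 2. It was called in each alternative in which it was tested, between 7.82 and 9.55 (the latter with total-read scaling, or 8.85 relative to the median of all genes), and was not tested where at least 20 normalized counts were required in every liver.

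Per kb of merged exons, the levels of the 10 genes changed order. In WT livers the order from the top was Rragc (283 normalized counts per kb), Flcn (153), Fnip1 (108), Tfe3 (96.6), Fnip2 (78.5), Tfeb (39.4), Mitf (10.6), Tfec (7.54), Rragd (5.89) and Gpnmb (1.64). Of these neighbours, Fnip1 and Tfe3 overlapped between livers. In Vps15LKO livers Gpnmb came first with 685 ± 156 normalized counts per kb, followed by Rragc with 368 ± 24.3, Rragd with 255 ± 36.1 and Tfe3 with 132 ± 7.95 (SD, n = 3). Flcn (122), Fnip1 (68.9), Fnip2 (58.9), Tfeb (39.6), Mitf (14.2) and Tfec (14.1) completed that order, and Tfe3 and Flcn, Fnip1 and Fnip2, and Mitf and Tfec overlapped. The places of Rragc at the top in WT and of Gpnmb, Rragc and Rragd at the top in Vps15LKO livers were the same with the longest transcript as the length. Tfe3 and Fnip1, and Tfeb and Fnip2, then exchanged places in WT livers. In Vps15LKO livers Tfeb then stood above Fnip1 and Fnip2, and Tfec above Mitf. The levels themselves move with the length used, that of Tfeb in Vps15LKO livers from 39.6 to 95.8 and that of Gpnmb from 685 to 1206 normalized counts per kb.

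The genes with the profile nearest to that of Tfeb over the 6 livers were Pnrc2, Ppp2r5c and Vps35, by Euclidean distance of log2 values set to each gene's WT mean (0.0638, 0.0835 and 0.0894). Those nearest to Gpnmb were Sprr1a, Elovl7 and Gpx2, at distances of 0.771, 1.82 and 1.89. Their own log2 fold changes were 8.73, 8.60 and 8.29, and closeness to that of Gpnmb follows from the way they were picked. With WT means of 1.70, 3.89 and 3.08 normalized counts, they were tested only through the Vps15LKO livers.

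The other genes of the nutrient-sensing pathway did not share the large rises. Of the remaining Rag and Ragulator genes 7 were tested, with 1 higher, 2 lower and a median log2 fold change of -0.03, against 33.5% higher, 33.0% lower and a median of -0.02 for all tested genes. Lamtor3, a subunit of the Ragulator scaffold, averaged 236 ± 18.8 normalized counts in the WT and 296 ± 29.4 in the Vps15LKO livers (log2 fold change 0.33, limma, adjusted p = 0.0376). Its call was lost on leaving out replicate 2 or replicate 3 of either genotype. Lamtor4 and Lamtor2 of the same scaffold fell, at -0.63 and -0.55 (limma, adjusted p = 0.00171 and 0.000811). Rragb, also in this list, did not pass the filter on low values and was not tested. It measured 0, 3.75 and 5.39 normalized counts in the WT and 16.8, 8.10 and 8.49 in the Vps15LKO livers, with no overlap.

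Of 9 genes of mTORC1 and its Rheb-TSC switch, none was called higher and 6 were called lower (33.5% and 33.0% of all tested genes), with a median log2 fold change of -0.37. Deptor, an inhibitor bound to mTOR, went from 4965 ± 440 to 1337 ± 243 normalized counts (log2 fold change -1.90, limma, adjusted p = 9.77e-06). Tsc1 of the complex that switches Rheb off was at -0.57. Among the GATOR, KICSTOR and amino acid sensor genes, 16 of 17 matched the table and were tested, with 3 higher, 7 lower and a median of -0.16. The arginine sensor Castor1 and its paralogue Castor2 rose (0.85 and 0.79), while Nprl2 of GATOR1, the complex that inactivates RagA and RagB, and the KICSTOR subunit Kptn fell (-1.10 and -0.74). These last 4 genes were on the same side in every liver, with no overlap. Of 5 genes for the calcium channel, phosphatase and nuclear export that act on TFEB, none was called higher and 2 were called lower, with a median of -0.22. These were Mcoln1, the lysosomal calcium channel (-0.36), and Ppp3ca, a catalytic subunit of calcineurin (-0.28). That count was 4 without WT replicate 3, 1 without WT replicate 2, Vps15LKO replicate 1 or Vps15LKO replicate 2, and 0 with upper-quartile scaling.

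The CLEAR network targets, lysosomal and autophagy genes with MiT/TFE sites, had calls in both directions, as the tested genes had at large. Of 29 tested, 14 were called higher and 7 lower (33.5% and 33.0% of all tested genes), with a median log2 fold change of 0.26. Gla, lysosomal alpha-galactosidase, rose from 126 ± 13.8 to 512 ± 43.3 normalized counts (log2 fold change 2.01, limma, adjusted p = 4.13e-06). The largest falls were of Uvrag, a partner of the Vps15-containing kinase complex (-0.75), and of Ppargc1a, a transcriptional coactivator of mitochondrial genes (-0.69, with overlapping genotypes). Leaving out any liver other than WT replicate 3 brought the number called lower to between 2 and 4. Over the alternatives the number called higher ranged from 11 to 26 and the number called lower from 0 to 8, and the median stayed 0.06 to 0.60 above that of all tested genes. Total-read scaling gave the 26 higher and 0 lower, where 10299 of all 15430 tested genes were called higher and 1712 lower. Under that scaling 5 of 7 Rag and Ragulator genes were called higher and none lower, so that Lamtor2 and Lamtor4 lost their calls. It called 5 of 9 mTORC1 genes higher and 1 lower, 10 of 16 sensor genes higher and 1 lower, and all 5 genes of the phosphatase list higher. At a fold threshold of 1.5 the number called lower was 1 for mTORC1, 3 for the sensors and 0 for the phosphatase list. Since it raises all genes together, the list medians relative to that of all tested genes hardly differed between the deposited and the total-read scaling, at -0.35 and -0.35 for mTORC1, -0.15 and -0.14 for the sensors, -0.20 and -0.20 for the phosphatase list and 0.28 and 0.28 for the CLEAR targets. Over all alternatives these relative medians ranged from -0.57 to 0.01 for mTORC1, from -0.36 to -0.06 for the sensors and from -0.42 to -0.03 for the phosphatase list. The upper ends for mTORC1 and the phosphatase list came from quantile normalization.

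**Figure D4:**
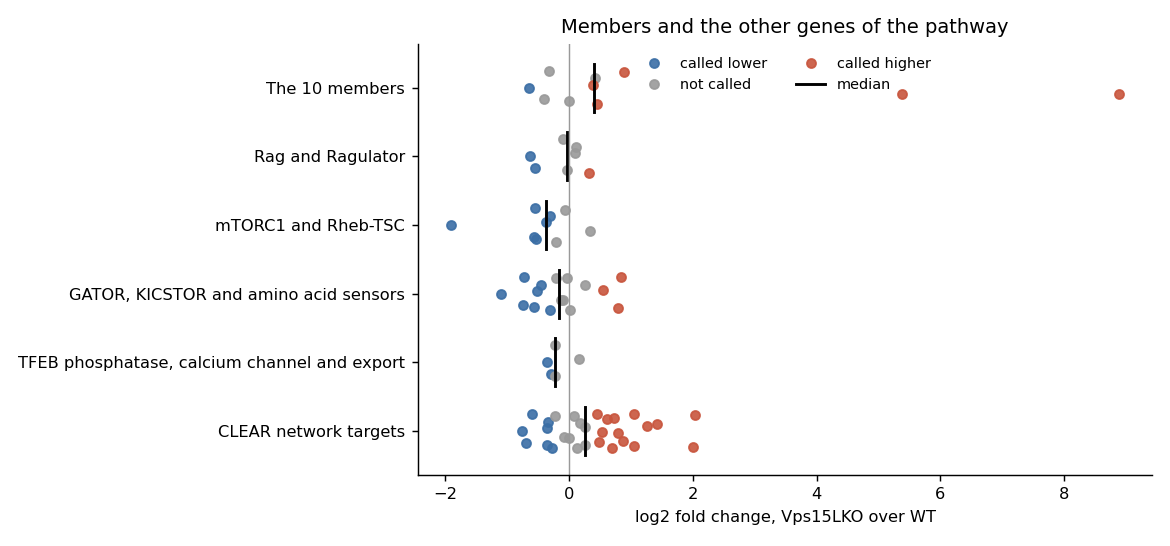
Log2 fold change of Vps15LKO over WT (x axis, deposited scaling) for the 10 members and for the tested genes of 5 pathway lists, 1 point per gene, with a black bar at the list's median. Rragd and Gpnmb stand apart on the right, while the list medians lie between -0.37 and 0.40; total-read scaling moves the median of all tested genes by 0.72 to the right.

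Markers of several other cell types rose beside these genes, where 33.5% of all tested genes were called higher and 33.0% lower. Of 9 markers of recruited and lipid-associated macrophages, 6 passed the filter on their WT values alone, and these 6 were called higher. The summed level of the 9 ranged from 1883 to 2423 normalized counts across the WT and from 17463 to 18335 across the Vps15LKO livers. Trem2, Mmp12 and Itgax were tested only because they are high in Vps15LKO livers, with log2 fold changes of 5.67, 7.39 and 4.23. Of 7 Kupffer cell markers 5 were called higher and none lower, with sums of 5975 to 6805 and 11401 to 16676. Those not called were Clec4f (log2 fold change 0.40, limma, adjusted p = 0.0786) and Timd4. Timd4 went the other way, from a mean of 174 to 118 normalized counts (-0.62, limma, adjusted p = 0.0585). The sums of hepatocyte markers fell from between 2725720 and 3152640 to between 862266 and 1278730, with 6 of 8 called lower. Alb makes up 72.0% to 75.8% of each sum and was not called itself (log2 fold change -1.48, limma, adjusted p = 0.366). Alb still separated the genotypes, its lowest WT liver being at 2030860 and its highest Vps15LKO liver at 968935. The SE of its log2 fold change was 1.38, against 0.15 to 0.37 for the other hepatocyte markers. Hpx (0.48) was not called either, although each Vps15LKO liver was above each WT liver. In a comparison added after the data were seen, the sums without Alb were 694858 to 802227 in WT and 241531 to 309800 in Vps15LKO livers.

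Further lists moved in the same libraries, where 33.5% of all tested genes were called higher and 33.0% lower. Of 6 cholangiocyte and progenitor markers, 3 passed the filter on their WT values alone (Krt19, Sox9 and Spp1) and were called higher, while Krt7, Epcam and Cftr were tested only through the Vps15LKO livers. The sums of the 6 were 663 to 790 in WT and 11583 to 22670 in Vps15LKO livers. Spp1 makes up 74.4% to 76.4% of the sum in WT and 89.8% to 90.4% in Vps15LKO livers. The ratio of the mean sums was 22.5 with Spp1 and 9.08 without it, also added after the data were seen. All 9 stellate cell and fibroblast markers were called higher (6927 to 7423 against 29269 to 34405). The summed lymphocyte markers were 76.9 to 104 in WT and 209 to 250 in Vps15LKO livers, but Cd3e, Cd3g, Cd8a and Nkg7 were tested only through the latter. The B cell gene Cd79a, the only one to pass the filter on its WT values, was not called, with means of 31.9 in WT and 19.97 in Vps15LKO livers. Of 6 endothelial markers 2 were called higher and 4 lower, beside 33.5% and 33.0% of all tested genes (sums of 6593 to 7385 against 4162 to 5783).

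The Vps15LKO livers did not rank alike on these sums. Replicate 3 was highest and replicate 2 lowest for Gpnmb, for Rragd and for the cholangiocyte and progenitor sum, at 22670 and 11583. The recruited macrophage sum had the same order over a narrower range, from 17463 to 18335. Within that list Mmp12 and Lgals3 were lowest in replicate 3. The Kupffer cell and lymphocyte sums were lowest in replicate 3 as well. The stellate cell and fibroblast sum was highest in replicate 3 but lowest in replicate 1. The hepatocyte and endothelial sums had the reverse order of Gpnmb, with hepatocyte sums of 862266 in replicate 3 and 1278730 in replicate 2. The size factors had the order of Gpnmb, at 1.41, 1.31 and 1.23 for replicates 3, 1 and 2. Tfec and Mitf were highest in replicate 1. The part of the cells behind these markers in the values of Gpnmb, Rragd, Tfec and Mitf was not tested.

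**Figure D5:**
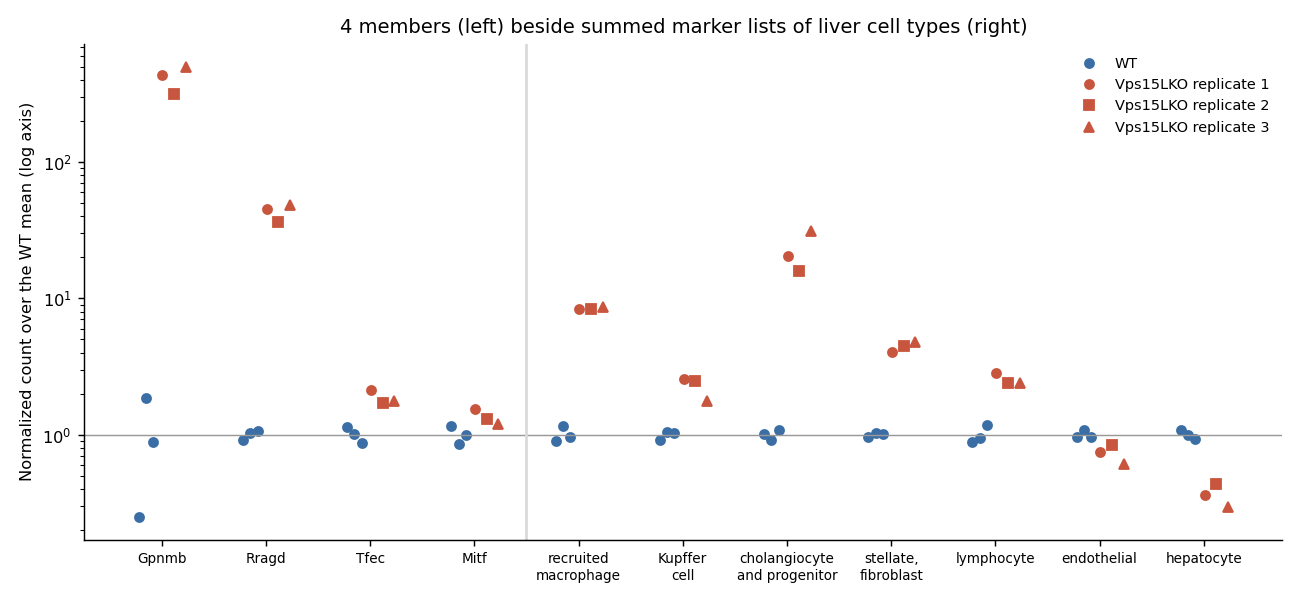
Level of Gpnmb, Rragd, Tfec and Mitf, and of summed marker lists of 7 cell types, in each liver relative to the WT mean (log axis), with WT in blue and each Vps15LKO replicate in red with its own symbol. In Vps15LKO livers Gpnmb and Rragd lie above every marker sum, and the hepatocyte and endothelial sums lie below 1 in each Vps15LKO liver. Single markers within a sum could rise more than Rragd (log2 fold change 5.38), as Mmp12 did (7.39).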

How the data were processed

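RNA-Seq libraries from 3 WT and 3 Vps15LKO livers were analysed, grouped by the titles in the labels. The authors filtered the reads with SOAPnuke, aligned them to GRCm38 with HISAT2, counted them with featureCounts and normalized them with DESeq2 (versions, strand and multi-mapping settings not given in the sources used here). The deposited values are a signal per gene, a read count divided by a size factor per library. Every value above 0 (100% per library, tolerance 0.01 read) was a whole number of reads, so reads were recovered for the count tests. Library totals were 16137093 to 18110223 reads, and intervals given here are of the spread between mice.

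Of 56305 identifiers 55227 matched GENCODE release M21. Genes reaching 20 normalized counts in 3 livers or more (15430) were compared on log2(value + 1), a scale that understates changes of low genes, with limma 3.58.1 (trend, two-sided, Benjamini-Hochberg) in R 4.3.3. Calls needed both an adjusted p below 0.05 and a fold of 1.2. Ratios of 2 members in a library were compared by exact permutation over livers. The fit was tested on simulated data, and 21 alternatives were run, among them edgeR 4.0.16 and DESeq2 1.42.0 on recovered reads. Intervals are 95%.

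Named were the 10 members, Pik3r4, the 2 called genes with the largest rise and the 2 with the largest fall of each pathway list, and the 3 profiles nearest to Tfeb and to Gpnmb. Members, pathway lists and marker lists were chosen with earlier results of these data known. Marker genes named singly were chosen after their values were seen. Promoter windows are RefSeq's. Replicates of a genotype differed by more than sampling noise. Of the sensor list, 1 symbol was not matched in the annotation used and was not analysed here, and protein sequences were not used here. Of the genes that the rule for named genes picks, 1 is not reported here.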

Additional observations from a re-analysis of the deposited data

How the results depend on the processing

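Of 209 values of the 10 members under the alternatives, 186 kept their direction and their side of the threshold, 11 came past it, 4 fell back and 8 changed sign. The number of members called higher was 5, and 8 under total-read scaling and 3 at a fold threshold of 1.5. The number called lower was 1, and 0 under total-read scaling. Leaving out 1 liver at a time gave 4 to 6 higher and 1 to 3 lower. Values that changed sign were those of Tfeb and Mitf with quantile normalization (-0.17 and -0.087), of Flcn, Fnip1 and Fnip2 under total-read scaling (0.41, 0.074 and 0.32), of Tfeb on leaving out a liver (-0.047 to 0.063), and of the Mitf to Tfe3 ratio on leaving out a liver (-0.18 to 0.13). By construction total-read scaling shifts all genes together (median 0.72, 10299 genes higher and 1712 lower, against 5163 and 5099); the cause of the other changes was not tested. Upper-quartile scaling moved the median by 0.12 and dropping the filter to any value above 0 moved it by 0.21.

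The replicate numbers did not pair the samples, since same-numbered livers correlated in their deviations at -0.010, -0.011 and 0.049 and 2 of 6 livers correlated best with their own number. With the replicate number as a block 5 members were called higher and 3 lower, Flcn and Fnip2 being added (limma, adjusted p = 0.0256 and 0.00873).

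With 3 livers per genotype the exact tests of ratios cannot go below 0.1, and the 2 to 16 reads of Gpnmb in WT libraries limit the size of its fold, not its direction.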

Other observations

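Melanocytes, mast cells and osteoclasts are the cells for which Mitf is best known. Of 5 melanocyte markers, Tyr, Tyrp1 and Mlana were at 0 in all 6 livers, and the summed level ran from 75.5 to 127 normalized counts among the WT and from 27.5 to 53.8 among the Vps15LKO livers. Dct was called lower, at 0 in the Vps15LKO livers and tested only through the WT livers, and Pmel was not called. Of 6 mast cell markers Fcer1a was at 0 in all livers, and Kit, the 1 tested, was not called, with sums of 176 to 245 and 184 to 211. Of 5 markers of osteoclasts and multinucleated macrophages Ctsk had means of 13.0 in WT and 107 in Vps15LKO livers and Ocstamp of 14.9 and 47.9 normalized counts, and both were tested only through the Vps15LKO livers. Calcr was at or near 0, and Acp5, which makes up most of the sum, had 2502 and 2348 (log2 fold change -0.10, not called). These lists stand beside the 418-fold difference of Gpnmb as values.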
